A study of Homo sapiens with 6 samples.

Results

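The genes described here are the HOXA cluster genes HOXA3, HOXA5, HOXA6, HOXA7, HOXA9 and HOXA10, their co-factors MEIS1 and PBX3, and the transcription factors MEF2C and ZEB2, all of which are named among the genes driven by KMT2A fusions in acute leukaemia. They were found by Entrez identifier in all 6 libraries, and make 10 of the 25420 genes annotated. The cells were MOLM-13, an established human cell line from a secondary acute myeloid leukaemia, which carries the MLL-AF9 fusion (KMT2A joined to MLLT3) and internal tandem repeats of FLT3 in both groups. The treated cells received 10 µM C646, an inhibitor of the acetyltransferases CBP and p300, and the controls received DMSO. After 1 h, 100 µM 4-thiouridine (4sU) was added for 1 h more, so that treatment lasted 2 h in all, with 3 replicates in each group. The sources used here do not say whether the replicates were separate cultures, so that the p-values measure the spread between these libraries, which may be technical.

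HOX proteins are homeobox transcription factors that set position in the embryo, and the 3′ HOXA genes through HOXA10 are active in blood stem and progenitor cells and are shut down as the cells mature. MEIS1 and PBX3 belong to the TALE homeobox family and bind DNA together with HOX proteins. A KMT2A fusion keeps these genes transcribed in leukaemic cells by bringing elongation factors to them, and HOXA9 with MEIS1 is a classical transforming pair. CBP and p300 acetylate histones at enhancers and promoters and serve as coactivators of many transcription factors.

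SLAM-seq tells RNA made during labelling from older RNA. An incorporated 4sU is read as C after alkylation, and a read with such a change (T > C read) comes from a transcript that took up label. A single conversion made a T > C read in the deposited counts, since none of the 24393 entries with reads and no T > C read, summed over the libraries, held a conversion. The libraries covered transcript 3′ ends, and the counts were those on annotated 3′ untranslated regions (UTRs). T > C reads and all reads were expressed as counts in 1000000 (CPM) of the TMM-scaled total of reads on 3′ UTRs of the same library. The T > C share is the percentage of a gene's reads that are T > C reads. No library without 4sU was analysed here, so that the background of T > C reads from sequencing errors and variants was not measured.

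The libraries held 7252597 to 10225448 reads on 3′ UTRs, of which 477824 to 833410 were T > C reads. T > C reads made up 8.79% ± 0.0637 of reads in DMSO and 6.48% ± 0.203 in C646 (SD, n = 3). The rate of conversions over all genes fell as well, from 6.50 ± 0.154 to 4.23 ± 0.0782 per 1000 covered T bases (SD, n = 3), with no overlap between groups. Less new RNA and less label per new RNA molecule cannot be told apart in these libraries, and likewise fewer cells and less RNA per cell. The 10 myeloid markers examined were all measured, at a summed level of 4062 to 4292 CPM in DMSO and 4092 to 4291 CPM in C646, most of it LYZ. SPI1, a myeloid transcription factor, was called lower in all reads (200 ± 41.0 to 94.3 ± 21.4 CPM, SD, n = 3, log2 fold change -1.08, adjusted p = 0.000765, edgeR). CD33 lay at 166 to 186 CPM in DMSO and 103 to 132 CPM in C646, and FLT3 at 103 to 134 CPM and 173 to 208 CPM, neither past the fold of a call. PTPRC lay at 14.0 to 20.3 CPM in DMSO and 26.9 to 40.4 CPM in C646. Its log2 fold change of 0.91 (adjusted p = 0.00437, edgeR) was also not called. Of the 11 genes listed as markers of other cell types, CD3E, ALB and HBB were at 0 in every library. The summed level of the list was 149 to 166 CPM in DMSO and 100 to 133 CPM in C646. Most of it was PECAM1 (144 to 157 CPM in DMSO, 88.7 to 123 CPM in C646). Whether the PECAM1 reads came from other cells was not tested. COL1A1 was called higher in all reads and in T > C reads, with 1.51 ± 0.761 CPM of all reads in DMSO and 6.24 ± 0.566 in C646 (SD, n = 3). The part of these markers in the results was not tested.

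The promoters of 9 of the 10 genes were listed by RefSeq (GRCh38.p14), as 22 windows of 300 bases around annotated starts. The last 100 bases before the start are shown for HOXA9, for the start of HOXA10 nearest to its 3′ end and for MEIS1, since these are the central genes of the programme, and for PBX3, the tested gene that was not called in T > C reads. Capitals mark a CCAAT box (CCAAT), the core TGACG of the cyclic AMP response element, a GC box (GGGCGG) and the MEIS motif TGACAG, each in either orientation.
HOXA9 (chr7:27165538-27165637, minus strand): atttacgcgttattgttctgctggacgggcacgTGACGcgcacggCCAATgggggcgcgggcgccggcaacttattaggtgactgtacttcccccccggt
HOXA10 (chr7:27174321-27174420, minus strand): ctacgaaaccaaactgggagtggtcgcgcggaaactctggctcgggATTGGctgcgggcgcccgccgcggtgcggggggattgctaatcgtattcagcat
MEIS1 (chr2:66435025-66435124, plus strand): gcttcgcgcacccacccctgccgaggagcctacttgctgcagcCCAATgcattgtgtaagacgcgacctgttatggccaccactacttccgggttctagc
PBX3 (chr9:125748083-125748182, plus strand): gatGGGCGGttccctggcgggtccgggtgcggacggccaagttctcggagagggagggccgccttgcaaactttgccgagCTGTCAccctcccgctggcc
The HOXA9, HOXA10 and MEIS1 stretches each held a CCAAT box, which the PBX3 stretch did not. The box did not follow the calls in T > C reads in every gene. ZEB2, called lower, had no CCAAT box in its window. MEF2C, also called lower, and the other start of HOXA10 had none in the last 100 bases. HOXA7 and a start of HOXA3, both genes called lower, had the box within the last 100 bases. Over the 300-base windows and both strands, the CCAAT box was in 8 of 22 windows, beside 34.6% of all 35116 promoter windows. TGACG was in 5 of 22 windows (24.6% of all), the GC box in 7 (45% of all), TATAAA in 4 (11.5% of all) and TGACAG in 4 (15.8% of all). Neither the full cyclic AMP response element TGACGTCA (1.85% of all, and holding TGACG within it) nor the HOX-PBX motif TGATTNAT (2.82% of all) was found in a window of these genes. The same letters occur in many promoters, and a match is not a measurement of binding. The GC content of the 22 windows ran from 28.7% to 76%, with a median of 50.3%, beside 58.7% over all windows.

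In DMSO, most of these genes had a large share of new RNA. The T > C share was 70.3% ± 5.52 for HOXA5, 58.1% ± 5.43 for ZEB2, 55.6% ± 10.4 for HOXA3, 40.0% ± 1.62 for HOXA9 and 32.9% ± 2.78 for MEIS1 (SD, n = 3). It was 28.1% ± 3.08 for HOXA10, 26.6% ± 0.249 for PBX3, 18.5% ± 1.63 for MEF2C and 11.2% ± 3.04 for HOXA7 (SD, n = 3). ZEB2 and HOXA3, MEIS1 and HOXA10, and HOXA10 and PBX3 overlapped between libraries, and the other neighbours in this order did not. The median over all 7760 genes tested in T > C reads was 13.3%. HOXA5 was above 98.6% of these genes, ZEB2 above 96.8% and HOXA3 above 96.3%, whereas HOXA7 was below the median and above 40.8% of them. The conversion rate, which counts bases and not reads, gave nearly the same places, with HOXA5 above 98% and HOXA7 above 39.4% of genes.

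C646 lowered the T > C reads of 8 of the 9 genes that had enough reads to be tested. Calls required an adjusted p no greater than 0.01 together with a log2 fold change of 1 or more in size (edgeR's quasi-likelihood test, Benjamini-Hochberg adjustment over all genes, libraries scaled by all reads). The rule called 33.8% of all genes lower and 2.9% higher. The 8 were HOXA3, HOXA5, HOXA7, HOXA9, HOXA10, MEIS1, MEF2C and ZEB2, none was called higher, and all 9 lay lower in each C646 library than in any DMSO library, as did 56.6% of all genes. The median log2 fold change was -1.18 (range -1.99 to -0.62), beside -0.84 over all genes (quartiles -1.47 and -0.27). Myeloid markers gave a similar value. Of the 8 tested in T > C reads, 6 were called lower and 0 higher, with a median of -1.17. These calls are relative to all mRNA. With libraries scaled by TMM on the T > C reads themselves, which shifts the median of all genes by 0.79 on the log2 scale, the median of the 9 was -0.39, only HOXA10 stayed called and PBX3 turned to 0.17; with DESeq2's size factors of T > C reads (shift 0.82) none was called and PBX3 was at 0.20. The T > C share, described further on, needs no scaling between libraries. It also fell over all genes, with a median log2 change in odds of -1.

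**Figure D1:**
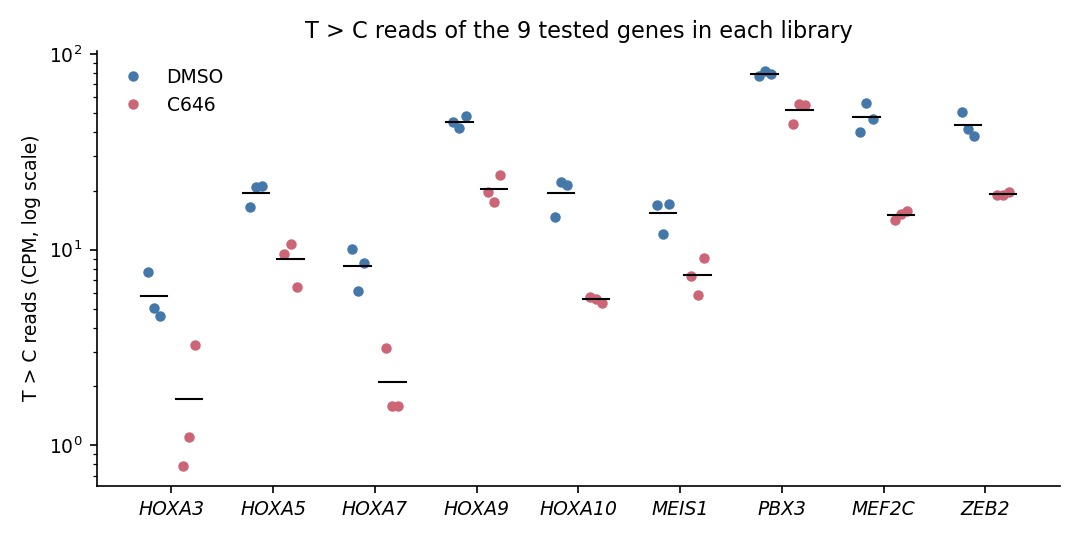
T > C reads of each tested gene in the 3 DMSO and 3 C646 libraries, in CPM on a log axis. Points are libraries and bars are means. For all 9 genes the C646 points lie below the DMSO points, by the least in log2 fold change for PBX3 (77.3 to 82.4 CPM in DMSO, 43.7 to 55.7 CPM in C646).

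HOXA9, a homeobox factor that blocks myeloid maturation when kept on, is annotated with 1 UTR at chr7:27162438-27163602 on the minus strand (GRCh38), which is 3′ UTR in full. Its T > C reads were 45.1, 41.7 and 48.2 CPM in DMSO replicates 1, 2 and 3 and 19.8, 17.6 and 24.1 CPM in C646. C646 libraries were thus all far under the DMSO libraries, with a log2 fold change of -1.13 (SE 0.18, adjusted p = 5.13e-06, edgeR). All reads of HOXA9 stood at 108, 108 and 121 CPM in DMSO and 109, 102 and 118 CPM in C646, and the groups overlapped (log2 fold change -0.04, adjusted p = 0.849, edgeR). The HOXA9 UTR lies within a UTR of the HOXA10-HOXA9 readthrough gene on the same strand, so that its reads were counted for both. HOXA10-HOXA9 accordingly gave a similar log2 fold change of -1.15 in T > C reads (SE 0.18, adjusted p = 3.64e-06, edgeR), and the reads cannot be assigned to either.

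HOXA10, which acts beside HOXA9 in progenitor cells, had 99.97% of its reads on chr7:27170591-27172173, where GENCODE release 44 annotates 81.9% of bases as 3′ UTR and 17.2% as coding. T > C reads were 14.8, 22.1 and 21.5 CPM in DMSO and 5.76, 5.62 and 5.35 CPM in C646. The C646 libraries were closely alike, all under the lowest DMSO library (log2 fold change -1.80, SE 0.24, adjusted p = 3.18e-07, edgeR).

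HOXA7, a neighbour of HOXA9, was read on chr7:27153719-27154908. It had 10.1, 6.15 and 8.52 CPM of T > C reads in DMSO and 3.14, 1.59 and 1.59 CPM in C646, from 13 to 24 T > C reads per C646 library (log2 fold change -1.99, SE 0.35, adjusted p = 2.65e-05, edgeR). All its reads came to 72.5, 77.5 and 73.5 CPM in DMSO and 61.9, 51.6 and 32.9 CPM in C646, with no overlap and the lowest value in C646 replicate 3, but the log2 fold change of -0.61 was not called (adjusted p = 0.0242, edgeR).

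HOXA5, a cluster gene also known from lung and blood development, was read on chr7:27141052-27141834. It had 16.5, 21.0 and 21.2 CPM of T > C reads in DMSO and 9.55, 10.8 and 6.44 CPM in C646 (log2 fold change -1.14, SE 0.23, adjusted p = 0.000134, edgeR), and was no longer called without C646 replicate 3 (-0.94). HOXA3 (chr7:27106190-27107914) had the fewest T > C reads of the genes tested, with 73, 36 and 34 in DMSO and 6, 9 and 33 in C646. The groups came within 1 read of each other, and C646 replicate 3 stood apart from the other C646 libraries. In CPM they did not overlap, at 7.70, 5.03 and 4.60 against 0.785, 1.10 and 3.27, with a log2 fold change of -1.70 (SE 0.43, adjusted p = 0.00149, edgeR). That call was lost without DMSO replicate 1 (-1.44, adjusted p = 0.0285) and without C646 replicate 2 (-1.46, adjusted p = 0.0122), and the change was -2.60 (adjusted p = 2.82e-05) without C646 replicate 3. HOXA6 (chr7:27145583-27145657) was too low to test, with 3, 0 and 0 reads in DMSO and 0, 8 and 0 in C646 on an annotated stretch of 75 bases.

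Along the cluster, the fall in T > C reads was not confined to the genes above. HOXA11, at the 5′ side of HOXA10, went from 16.5 ± 4.04 to 3.71 ± 0.854 CPM of T > C reads (SD, n = 3; log2 fold change -2.16, SE 0.27, adjusted p = 1.34e-07, edgeR). Its total level fell too, from 41.2 ± 7.99 to 17.6 ± 3.81 CPM (SD, n = 3; log2 fold change -1.22, adjusted p = 0.000678, edgeR), whereas none of the 9 was called in all reads. HOXA4 and HOXA13 had 11 to 40 reads per library and were tested in all reads alone, where neither was called (log2 fold changes -0.38 and -0.57). HOXA2 had at most 5 reads in a library and was not tested, nor was EVX1, which had none. Of the non-coding RNAs of the cluster, HOTAIRM1 (T > C log2 fold change -0.89, adjusted p = 0.171, edgeR) and HOXA10-AS (-0.78, adjusted p = 0.22, edgeR) were tested in T > C reads and not called, and HOXA11-AS was tested in all reads alone and not called (-1.01, adjusted p = 0.127, edgeR). The HOXB, HOXC and HOXD clusters, 28 genes in all, had 0 to 11 reads per library together, and none could be tested.

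MEIS1, the TALE co-factor of HOXA9, had all its reads on chr2:66571246-66572759. T > C reads were 16.9, 12 and 17.2 CPM in DMSO and 7.33, 5.87 and 9.02 CPM in C646. The libraries did not overlap, but the log2 fold change of -1.05 (SE 0.24, adjusted p = 0.000569, edgeR) lay near the limit of 1, and it was -0.97, -0.96 and -0.90 without DMSO replicate 1, DMSO replicate 3 and C646 replicate 2, and not called in these fits. All MEIS1 reads were 40.1 to 50.6 CPM in DMSO and 39.9 to 46.8 CPM in C646.

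PBX3, the other TALE member, had the smallest change. Its T > C reads on chr9:125965924-125967376 were 77.3, 82.4 and 78.6 CPM in DMSO and 43.7, 55.7 and 55.1 CPM in C646. The log2 fold change of -0.62 (SE 0.15, adjusted p = 0.00113, edgeR) did not reach the fold limit, and was smaller in size than the -0.84 of the median gene. PBX3 was also the only one of the 9 whose total level was higher in every C646 library, at 366 to 381 CPM against 293 to 311 CPM (log2 fold change 0.31, adjusted p = 0.0615, edgeR, not called).

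MEF2C, a MADS-box factor of lymphoid and myeloid progenitors that is often high in KMT2A-rearranged leukaemia, was read on chr5:88718241-88722603. T > C reads came to 39.9, 56.1 and 46.5 CPM in DMSO and 14.3, 15.3 and 15.8 CPM in C646. C646 thus left 31.8% of the DMSO level, with little spread between its libraries (log2 fold change -1.65, SE 0.18, adjusted p = 1.6e-08, edgeR). All MEF2C reads were 256 ± 23.1 CPM in DMSO and 255 ± 9.64 CPM in C646 (SD, n = 3; log2 fold change -0.005, adjusted p = 0.977, edgeR).

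ZEB2, a zinc-finger repressor needed in haematopoietic differentiation, is annotated at 4 places on the minus strand of chromosome 2. T > C reads summed over them were 50.7, 41.5 and 38.3 CPM in DMSO and 19.1, 18.9 and 19.6 CPM in C646 (log2 fold change -1.18, SE 0.18, adjusted p = 2.71e-06, edgeR). All reads were 79.5, 71.9 and 72.4 CPM against 57.3, 55.1 and 63.7 CPM, without overlap and not called (log2 fold change -0.34, adjusted p = 0.0669, edgeR). The places differed in their share of new RNA. The 3′ UTR of the full-length form (chr2:144384375-144389450) held 66.9% of the reads, with a T > C share of 70.7% ± 6.37 in DMSO and 39.3% ± 2.40 in C646 (SD, n = 3). A 3′ UTR of a short form (chr2:144511385-144513797) held 23.2% of the reads and went from 31.3% ± 3.6 to 23.2% ± 4.79 (SD, n = 3). A further entry (chr2:144519939-144520391), which GENCODE places in full in the 5′ UTR, held 9.9% of the reads and went from 32.8% ± 10.4 to 13.3% ± 6.03 (SD, n = 3). The full-length end had a higher share than both other places in every library, and in each of these 3 places no C646 library reached a DMSO library. The last entry (chr2:144517278-144517419) had 1 read in all.

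**Figure D2:**
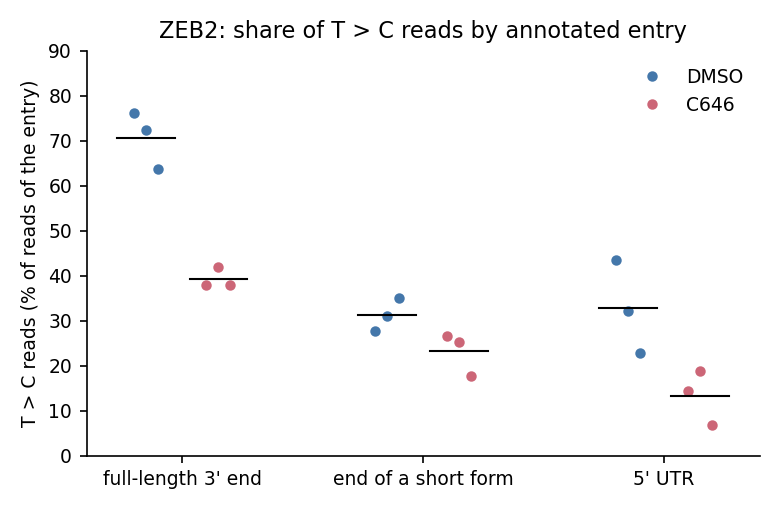
T > C share (% of reads of the entry) of the 3 ZEB2 entries with more than 1 read, in 3 DMSO and 3 C646 libraries. Points are libraries and bars are means. The full-length 3′ end has a mean of 70.7% in DMSO and 39.3% in C646, above the entries at the end of a short form (31.3% and 23.2%) and at the 5′ UTR (32.8% and 13.3%).

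Relative to all mRNA, the total level of these genes changed little within the 2 h. The libraries were scaled by all reads, so that a change shared by all mRNA would not show. In all reads none of the 9 was called, beside 2% of all 10851 tested genes called lower and 5.72% higher. Their median log2 fold change was -0.11 (range -0.61 to 0.31), beside -0.02 over all genes. HOXA7 and ZEB2 lay lower in every C646 library than in any DMSO library, as did 24% of all genes, and PBX3 lay higher, as did 23.6%. With the limit set at an adjusted p of 0.05 and none on the fold, HOXA7 was the only one that passed (adjusted p = 0.0242, edgeR), and it no longer did in 5 of the 6 fits without a single library (adjusted p = 0.055 to 0.0774), with a log2 fold change of -0.39 without C646 replicate 3.

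The T > C share fell for all 9 genes. The test compared the odds of T > C to other reads of a gene, both from the same library. All 9 were called lower, beside 38.2% of genes called lower and 0.786% called higher, and all 9 lay lower in each C646 library than in any DMSO library, as did 64.5% of all genes. The median log2 change in odds was -1.54 (range -2.26 to -1.17), beside -1 over all genes. The conversions per 1000 covered T bases of all 9 also lay lower in each C646 library than in any DMSO library, as did 65.5% of all genes tested in T > C reads.

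In log2 odds, the largest falls in share were those of HOXA5 and HOXA3. Relative to the DMSO share the order differed. MEF2C (mean 18.5% to 5.92%) then fell further than HOXA5 (mean 70.3% to 33.2%). HOXA5 had shares of 65.3%, 69.4% and 76.2% in DMSO and 30.7%, 40.2% and 28.8% in C646, a log2 change in odds of -2.26 (SE 0.36, adjusted p = 1.59e-05, edgeR). HOXA3 went from 64.6%, 58.1% and 44.2% to 11.8%, 12.3% and 39.3% (-2.26, SE 0.61, adjusted p = 0.00292, edgeR), with the last C646 library close to the lowest DMSO library. MEF2C had 18.5% ± 1.63 against 5.92% ± 0.361 (SD, n = 3; -1.84, adjusted p = 7.91e-09, edgeR), and HOXA10 had 28.1% ± 3.08 against 10.0% ± 0.63 (SD, n = 3; -1.80, adjusted p = 8e-06, edgeR). HOXA9 went to 18.6% ± 1.63 (-1.54), ZEB2 to 32.8% ± 1.84 (-1.52), HOXA7 to 4.32% ± 1.08 (-1.47), MEIS1 to 17.5% ± 5.02 (-1.23) and PBX3 to 13.9% ± 1.76 (-1.17) in C646 (SD, n = 3). PBX3, not called in T > C reads, was thus called in the share. Of all genes tested, 41.5% had a lower value than PBX3 in the share, and 38.6% a lower value than MEIS1. Leaving out single libraries ended the call in the share for HOXA3 (without DMSO replicate 1 or 2 or C646 replicate 1 or 2, adjusted p = 0.0307, 0.0222, 0.014 and 0.0237), for HOXA7 (without DMSO replicate 1, adjusted p = 0.0125) and for MEIS1 (without DMSO replicate 1 or 3 or C646 replicate 2, adjusted p = 0.0129, 0.0161 and 0.015).

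**Figure D3:**
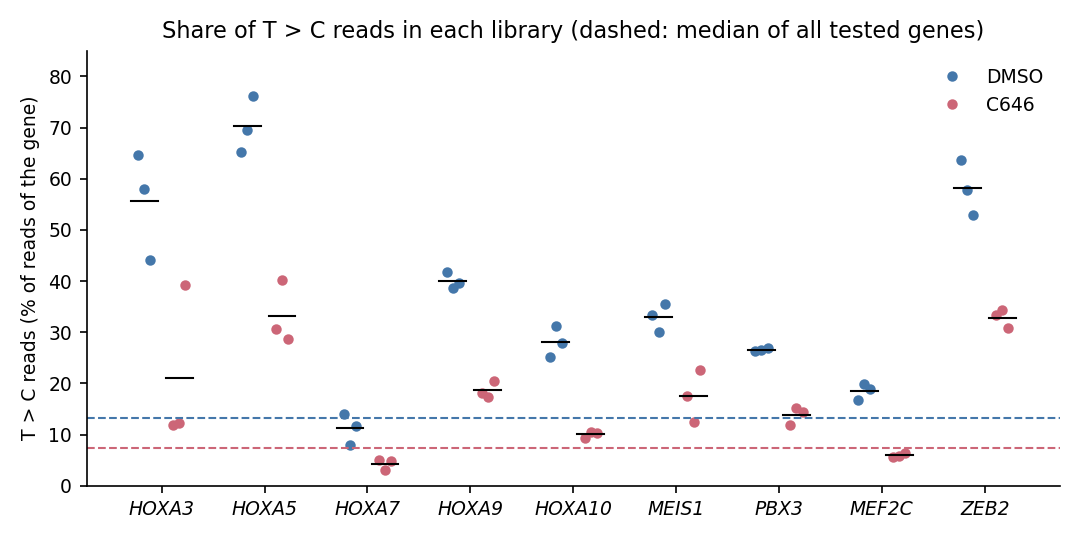
T > C share (% of reads of the gene) in each library. Points are libraries, bars are means and dashed lines are the medians of all tested genes (13.3% in DMSO, 7.33% in C646). HOXA5, ZEB2 and HOXA3 stand highest in DMSO, and the C646 points of each gene lie below its DMSO points.

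With fewer T > C reads and a similar total, the reads without any conversion were higher in C646 for several of the genes. HOXA5 showed it most, with 8.76, 9.23 and 6.63 CPM of such reads in DMSO and 21.6, 16.0 and 16.0 CPM in C646. All its C646 libraries were well above DMSO, and it was the only one of the 9 called (log2 fold change 1.11, SE 0.23, adjusted p = 0.00233, edgeR), beside 7.85% of all 10584 tested genes called higher and 0.945% called lower. The value stayed positive but slipped below the fold limit without DMSO replicate 3 (0.99) or C646 replicate 1 (0.96). PBX3 went from 219 ± 8.15 to 320 ± 8.67 CPM (SD, n = 3; log2 fold change 0.54, adjusted p = 0.00512, edgeR, not called) and HOXA9 from 67.5 ± 5.37 to 89.1 ± 4.71 CPM (SD, n = 3; 0.40, adjusted p = 0.0378, edgeR, not called). In 5 of the 9 (HOXA5, HOXA9, PBX3, MEF2C and ZEB2) every C646 library was above every DMSO library, as in 29.2% of all genes, and HOXA7 was the only one with every C646 library below, as in 18.2%. The median log2 fold change was 0.35, beside 0.09 over all genes. These reads hold older RNA and new RNA that took up no label or gave no conversion in the stretch read, and the conversion rate of the whole library was lower in C646 as given above. The part of that lower rate in these values was not tested.

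Relatives of these genes and of the fusion moved unequally. Of the 13 other TALE genes, 5 had enough T > C reads, and TGIF2 (log2 fold change -2.90, SE 0.35, adjusted p = 6e-08, edgeR), a co-repressor of TGF-beta signalling, and IRX3 (-1.39, SE 0.21, adjusted p = 2.01e-06, edgeR) were called lower. TGIF1 (-1.11, adjusted p = 0.0198, edgeR), IRX5 (-0.35) and PKNOX1 (0.89, adjusted p = 0.0793, edgeR), another partner of PBX proteins, were not called. In the share TGIF2 (-3.60), IRX3 (-1.20) and TGIF1 (-2.27, adjusted p = 0.0028, edgeR) were called lower and IRX5 and PKNOX1 were not, and in all reads none of the 5 was called, with PKNOX1 at 0.91 (adjusted p = 0.0044, edgeR). PBX2, PBX4 and MEIS3 were too low to test in any read class, and MEIS2 was tested in all reads alone (0.27). MEF2D was called lower (-1.91, SE 0.17, adjusted p = 2.35e-10, edgeR), from 115 ± 24.0 to 30.5 ± 5.22 CPM of T > C reads (SD, n = 3), whereas MEF2A was at -0.59 (adjusted p = 0.288, edgeR). The KMT2A 3′ UTR is not held by the KMT2A-MLLT3 transcript, which ends in MLLT3, and its reads gave -1.18 in T > C reads (adjusted p = 0.0416, edgeR, not called) from a mean of 26.0 T > C reads in DMSO and 12 in C646, and a called fall in the share (-2.14, adjusted p = 0.000645, edgeR). MLLT3, whose 3′ UTR serves the fusion transcript and intact MLLT3, had a mean of 7.33 T > C reads in DMSO and 1.67 in C646, too few to test.

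Of 17 further genes known as targets of KMT2A fusions, 15 were tested, and 10 were called lower and 0 higher in T > C reads (33.8% and 2.9% over all genes), with a median log2 fold change of -1.39 beside -0.84 over all genes. The 4 with the most T > C reads spanned a wide range. MYB, a driver of progenitor self-renewal, was at -1.41 (SE 0.15, adjusted p = 4.49e-09, edgeR), and SATB1, a chromatin organiser, at -2.04 (SE 0.16, adjusted p = 8.39e-12, edgeR). CDK6, a cell cycle kinase, was at -0.53 (SE 0.16, adjusted p = 0.00553, edgeR) and MBNL1, a splicing regulator, at -0.41 (SE 0.15, adjusted p = 0.0204, edgeR), both uncalled. In the share 12 of the 15 were called lower and 0 higher (38.2% and 0.786% over all genes), and in all reads 1 was called lower and 0 higher (2% and 5.72% over all genes).

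The 5 genes whose T > C profile over the 6 libraries was most like the mean profile of the 9 were RPL14, XBP1, ARL6IP5, ZBTB33 and C15orf61. Likeness was the root mean square distance of log2 of T > C CPM plus 0.5, centred on each gene, among 2836 genes with a mean of 50 or more T > C reads, and the 5 distances ran from 0.0442 to 0.080. Their log2 fold changes were between -1.41 and -1.28. The 9 genes themselves lay at 0.126 (HOXA9) to 0.5 (HOXA3) from their mean.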

How the data were processed

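MOLM-13 cells were treated with C646 or DMSO and labelled with 4sU, 3 replicates each, and 3′ end libraries were made by SLAM-seq. Base calling used CASAVA 1.9, and alignment to GRCh38 by the authors used SLAM-Dunk v0.4.1 with default settings. The tables, 1 per library with 58136 UTR entries, hold counts of all reads, T > C reads, conversions and multimapped reads, which the authors deposited without normalization. A deposited signal gives the coverage summed over T positions. The column of T bases is 0 throughout the table of C646 replicate 3, and the other tables were used for it.

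Entries were summed per gene, and symbols were matched to 25310 of 25420 Entrez identifiers. Multimapped reads were under 1% of the reads of each of the 10 genes. The tests ran in edgeR 4.0.16 (R 4.3.3; filterByExpr, glmQLFit, glmQLFTest) on all genes, with TMM-scaled totals of all reads as library sizes. The share was modelled with T > C and other reads as paired columns of each library and tested by their interaction with treatment, and its log2 change is one of odds. Reads without conversion are all reads minus T > C reads, and their test was added after seeing the data. SE is the absolute log2 fold change over the root of F. Alternatives used DESeq2 1.42.0, other scalings, filters, entries and limits, a replicate block, and fits without single libraries. The scripts were tested on simulated data.

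The genes named are the 10 members, the tested genes of the HOXA, TALE, MEF2 and ZEB families and of the fusion partners, the 4 further fusion targets with the most T > C reads, genes sharing a UTR with a member and the 5 most like genes. Members and lists were chosen with earlier results of these data known. Results for some further genes are not reported here.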

Additional observations from a re-analysis of the deposited data

How the results depend on the processing

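The counts of genes called in T > C reads (2619 lower, 225 higher) depended on scaling by all reads. With TMM of the T > C reads they were 667 and 672, with 1 of the 9 genes described called lower, and with DESeq2's Wald test and size factors of T > C reads 565 and 659, with 0 called. PBX3 then reversed to 0.165 and 0.198. At an adjusted p of 0.05 or less without a fold limit, 3945 genes were lower and 401 higher in T > C reads, 1657 and 1768 in all reads (1 of the 9 lower, HOXA7), 4693 and 127 in the share, and 1144 and 2133 in reads without conversion (3 of the 9 higher). Leaving out each library in turn gave 6 to 8 of the 9 called lower in T > C reads, 126 to 343 genes lower in all reads, and 40 to 201 genes lower in reads without conversion, with 0 to 1 of the 9 higher. Without entries that overlap another gene HOXA9 could not be tested, and 7 were called lower in T > C reads.

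The all-read change of MEF2C, near 0, reversed to 0.002 with DESeq2's size factors and with its Wald test. Over fits without single libraries it ran from -0.052 to 0.071, that of HOXA5 from -0.176 to 0.065, that of HOXA9 from -0.09 to 0.022, and that of HOXA10 in reads without conversion from -0.064 to 0.116. The cause of these changes was not tested.

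The labels number the replicates but name no shared culture. Deviations of same-numbered libraries correlated between -0.0117 and 0.0102 in T > C reads and between -0.0015 and 0.231 in all reads, so that no pairing was established. With a replicate block, 2636 genes were lower and 217 higher in T > C reads (8 of the 9 lower), 253 and 677 in all reads, 2771 and 57 in the share, and 133 and 894 in reads without conversion. In T > C reads, depth limits HOXA3, HOXA6 and HOXA7 most.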
